A study of Mus musculus with 15 samples.

Results

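The 9 Notch pathway genes described here are the receptors Notch1 and Notch2, the ligands Dll4 and Jag1, and the target genes Hes1, Hey1, Hey2, Heyl and Nrarp. They were taken by name from the 23154 genes of the deposited tables, and all 9 were present. The data are single-cell RNA sequencing of mouse embryonic hearts carrying either Nkx2-5Cre with the Rosa26tdTomato reporter or Isl1Cre with the same reporter, collected at 4 stages of embryonic development, from E7.75 through E8.25 and E8.75 to E9.25. There were 15 libraries, 2 for each line and stage but 1 for Isl1Cre at E9.25. In such crosses the Cre enzyme, made where Nkx2-5 or Isl1 is active, switches on tdTomato permanently, so the label marks the descendants of those cells. There was no group without Cre, and the sources used here do not say which cells were tdTomato-positive, nor which were collected by sorting and which after trypsin digestion alone.

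The Notch pathway is a contact signal: a ligand on one cell binds a receptor on its neighbour, the receptor is cut, and its inner part enters the nucleus and joins the DNA-binding protein RBPJ to switch on target genes. Notch1 and Dll4 are known in endothelium and in endocardium, the inner lining of the heart. Hes1, Hey1, Hey2 and Heyl encode repressors that RBPJ complexes can induce, and Nrarp encodes a feedback inhibitor of the receptor. In the embryonic heart Hey1 is known from atrial and Hey2 from ventricular muscle.

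Cells were compared in 2 classes set by 1 gene each, in CPM, the counts of a gene scaled to a fixed total per cell. Tnnt2 encodes the troponin T of heart muscle and Cdh5 the VE-cadherin of endothelium. Of 1400 cells, 1332 had at least 2000 counts and 1000 genes and were kept. Of these, 902 cells (67.7%) had Tnnt2 at or above 2000 CPM with Cdh5 below 20 CPM and are called Tnnt2 cells, and 82 (6.2%) had Cdh5 at or above 20 CPM with Tnnt2 below 2000 CPM and are called Cdh5 cells. A further 24 cells passed both limits and 324 passed neither. The Cdh5 cells came from Nkx2-5Cre hearts in 56 cases and from Isl1Cre hearts in 26.

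The other markers went with the class names. Summed over 10 endothelial and endocardial genes other than Cdh5, the level was 848.7 to 2455.2 CPM in the Cdh5 cells of a library and 12.8 to 182.6 CPM in its Tnnt2 cells. Summed over 8 heart muscle genes other than Tnnt2, it was 12130 to 31146.7 CPM in Tnnt2 cells and 643.3 to 8120.6 CPM in Cdh5 cells, so muscle RNA was not absent from the Cdh5 class. Of the 82 Cdh5 cells, 10 had Myl7, an atrial myosin light chain of the early heart tube, at or above 2000 CPM. Endothelium outside the heart and endocardium cannot be told apart by these markers. The kept cells of a library held 8165519 to 38321215 counts, and the median cell held 117252 counts among Tnnt2 cells and 112704 among Cdh5 cells, so depth was close between the classes. No cell name was shared between libraries. In the 7 groups with 2 libraries, both titles carry the same embryo number. The spread that enters the p-values is that between such libraries and may be technical. Differences between Cre lines or stages cannot be told apart from differences between single embryos.

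On mm10, in the GENCODE annotation, Notch1 lies on the minus strand of chromosome 2 (chr2:26457903-26516663), with Nrarp (chr2:25180758-25183339) and Dll4 (chr2:119325784-119335962) on its plus strand and Jag1 (chr2:137081456-137116644) on its minus strand. Notch2 is at chr3:98013527-98150361, Hey1 at chr3:8663359-8667256, Heyl at chr4:123233556-123249875, Hey2 at chr10:30832359-30842801 and Hes1 at chr16:30064384-30067796. Notch1, Notch2, Dll4 and Nrarp each overlap at least 1 other annotated gene. The sources used here do not state whether counting used the strand, so some of their reads could belong to those neighbours.

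Promoter windows of 300 bases, 250 before to 50 after the gene start (RefSeq, GRCm38.p6), were at hand for 6 of the 9 genes; Hes1, Hey1 and Heyl had no entry. The windows of Dll4 and Nrarp are printed, from 250 bases before to 10 after the start, because these genes had low levels in Tnnt2 cells and were raised together in Cdh5 cells, and that of Hey2 because it was not. Capitals mark TGGGAA, the core recognised by RBPJ, read on either strand (TTCCCA on the other), and the 2 forms do not overlap each other. Dll4 is at chr2:119325534-119325793 (plus strand), Nrarp at chr2:25180508-25180767 (plus strand) and Hey2 at chr10:30842774-30843033 (minus strand).
Dll4: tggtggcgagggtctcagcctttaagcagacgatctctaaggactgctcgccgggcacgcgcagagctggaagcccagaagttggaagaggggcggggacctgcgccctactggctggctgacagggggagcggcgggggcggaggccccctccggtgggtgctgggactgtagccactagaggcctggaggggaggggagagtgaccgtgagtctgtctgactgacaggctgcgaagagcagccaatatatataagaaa
Nrarp: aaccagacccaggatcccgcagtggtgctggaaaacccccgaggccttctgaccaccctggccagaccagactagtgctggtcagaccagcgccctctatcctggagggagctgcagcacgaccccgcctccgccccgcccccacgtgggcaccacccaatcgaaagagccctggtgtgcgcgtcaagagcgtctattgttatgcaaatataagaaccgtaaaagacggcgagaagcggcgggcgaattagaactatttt
Hey2: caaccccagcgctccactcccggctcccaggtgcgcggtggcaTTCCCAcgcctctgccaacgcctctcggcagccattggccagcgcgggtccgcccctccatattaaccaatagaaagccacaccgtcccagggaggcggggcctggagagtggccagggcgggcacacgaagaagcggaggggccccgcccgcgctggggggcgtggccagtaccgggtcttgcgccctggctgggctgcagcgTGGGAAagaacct
The Hey2 window held the letters at 2 places, starting at -207 as TTCCCA and at -3 as TGGGAA relative to the gene start. The windows of Notch1, Notch2, Dll4, Jag1 and Nrarp held none. Of all 32851 windows of that length, 25.6% held at least 1 match and 3.8% held 2 or more, so single matches are common. A match is a run of letters and not a measured binding site, and a window without one says nothing of RBPJ.

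Dll4, Notch1 and Nrarp stood highest in Cdh5 cells relative to Tnnt2 cells of the same hearts, followed by Hey1 and Hes1, whereas Jag1 was lower there. For Notch2 and Hey2 no difference was detected. The comparison used the 9 libraries with at least 5 cells of each class (6 of Nkx2-5Cre, 3 of Isl1Cre), with 70 Cdh5 cells (5 to 12 in a library) and 559 Tnnt2 cells. Each library gave 1 mean CPM per class, and the classes were compared within libraries by limma on log2(mean CPM + 1), with Benjamini-Hochberg adjustment over 11314 genes and a threshold of 0.05. Fold changes on this scale understate those of low genes. Of the 8 members that passed the filter on low values, 5 were called higher and 1 lower in Cdh5 cells. Beside them, 11.3% of all genes were called higher and 18.9% lower. Dll4 (at most 1.07 CPM in Tnnt2 cells) and Nrarp, both among the 5, passed that filter only through the Cdh5 cells. For these genes the filter favoured the direction, so their part in the count is a description. Both were also called without the filter. The median difference was 1.63 over the 8 members and -0.21 over all genes. Heyl did not pass the filter.

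Among the receptors, Notch1 had 0.36, 3.76 and 10.32 CPM (lowest, median and highest of the 9 libraries) in Tnnt2 cells and 48.0, 90.15 and 188.5 CPM in Cdh5 cells. The ranges did not overlap, and Notch1 was higher in Cdh5 cells in 9 of 9 libraries. The log2 difference was 4.48 ± 0.36 (SE; adjusted p = 1.22e-09, limma). Notch2, the other receptor, had 6.67, 10.13 and 15.46 CPM in Tnnt2 cells and 2.07, 6.86 and 40.11 CPM in Cdh5 cells, ranges that overlapped. It was higher in Cdh5 cells in 3 of 9 libraries, with a log2 difference of -0.39 ± 0.46 (adjusted p = 0.571, limma). The Tnnt2 cells thus had both receptors at low levels, with Notch2 the more abundant in counts, and the Cdh5 cells had Notch1 well above Notch2. These libraries hold the 3' ends of transcripts, so the counts were not divided by gene length, and levels of different genes are only roughly comparable.

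The ligands divided between the classes. Dll4 had 0.2, 0.44 and 1.07 CPM in Tnnt2 cells and 18.12, 29.33 and 88.84 CPM in Cdh5 cells. It was higher in Cdh5 cells in 9 of 9 libraries without overlap, by 4.71 ± 0.45 on the log2 scale (adjusted p = 1.74e-08, limma). Jag1 had 23.57, 40.44 and 125.82 CPM in Tnnt2 cells and 2.0, 13.37 and 42.98 CPM in Cdh5 cells. It was lower in Cdh5 cells in 9 of 9 libraries, although the 2 ranges overlapped, with a log2 difference of -1.995 ± 0.344 (adjusted p = 9.22e-05, limma). With the Cdh5 limit raised to 100 CPM, the Jag1 call was lost (-1.99, adjusted p = 0.186).

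Among the targets, Nrarp had 0.07, 0.87 and 8.4 CPM in Tnnt2 cells and 16.52, 27.88 and 53.95 CPM in Cdh5 cells, again without overlap. Its log2 difference was 3.72 ± 0.48 (adjusted p = 2e-06, limma). Hey1 had 1.92, 4.37 and 12.66 CPM in Tnnt2 cells and 7.8, 21.19 and 57.28 CPM in Cdh5 cells, and was higher in Cdh5 cells in each of the 9 libraries by 2.04 ± 0.42 on the log2 scale (adjusted p = 0.000693, limma). Hes1, the most abundant of the targets in both classes, had 23.49, 55.78 and 108.95 CPM in Tnnt2 cells and 36.0, 119.4 and 237.05 CPM in Cdh5 cells. It was higher in Cdh5 cells in 8 of 9 libraries, by 1.21 ± 0.28 (adjusted p = 0.00202, limma). The exception was replicate 2 of Nkx2-5Cre at E7.75, with 85.22 CPM in Tnnt2 cells and 36.0 CPM in Cdh5 cells. With cells thinned to 5000 counts the calls of Nrarp, Hey1 and Hes1 were lost (adjusted p = 0.378, 0.177 and 0.511), and with a Cdh5 limit of 100 CPM that of Hey1 (adjusted p = 0.0687).

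For Hey2, a relative of Hey1, no difference was called. It had 0.0, 12.88 and 16.64 CPM in Tnnt2 cells and 0.0, 14.04 and 23.78 CPM in Cdh5 cells. Cdh5 cells were the higher class in 4 libraries and the lower in 4, and both classes were at 0 in replicate 1 of Isl1Cre at E7.75. The log2 difference was -0.10 ± 0.50 (adjusted p = 0.91, limma), which leaves room for a change of moderate size in either direction. Heyl had a count in 8 of 1332 kept cells, of which 3 were Tnnt2 cells and 2 were Cdh5 cells, both of the latter in replicate 1 of Nkx2-5Cre at E8.75.

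**Figure D1:**
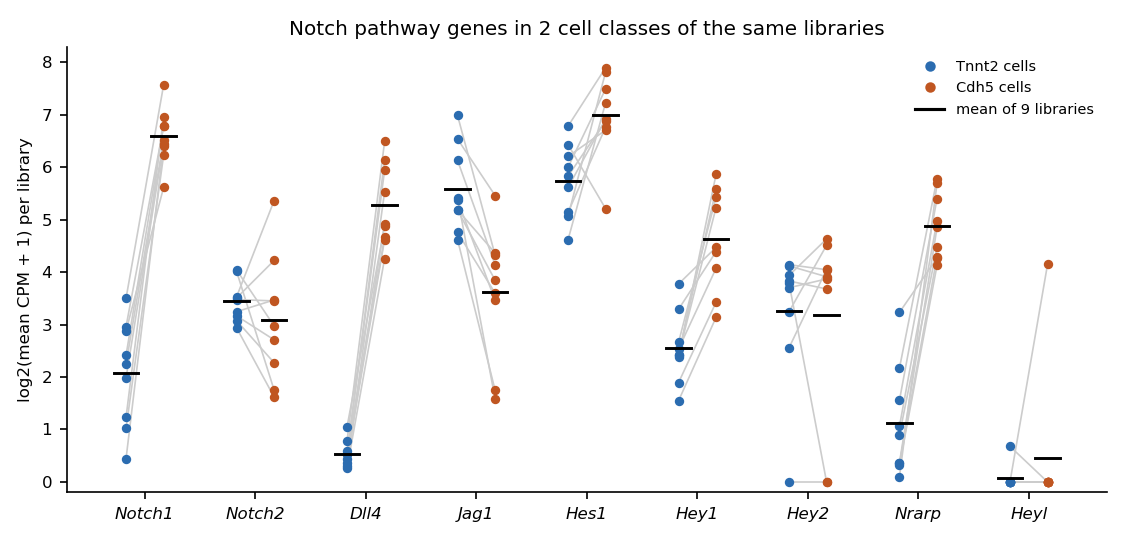
Mean CPM of each gene over the cells of a class in 9 libraries, on a log2(CPM + 1) axis, with grey lines joining the classes of 1 library and black bars giving means. Notch1, Dll4 and Nrarp separate without overlap, Jag1 falls in all 9 libraries, and Hey2 and Notch2 show no common direction.

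Detection in single cells went the same way for 6 of these genes. With every cell thinned to 20000 counts, which left 79 of the 82 Cdh5 cells and 824 of the 902 Tnnt2 cells, Notch1 had a count in 62.0% of Cdh5 cells (95% exact binomial interval 50.41 to 72.72) and 4.9% of Tnnt2 cells (3.49 to 6.55). Dll4 was found in 43.0% of Cdh5 cells and 1.0% of Tnnt2 cells, and Nrarp in 32.9% and 1.2%. Hey1 was found in 30.4% and 5.8%, and Hes1 in 74.7% and 41.3%. Jag1 was the reverse, at 16.5% of Cdh5 cells and 44.1% of Tnnt2 cells. Notch2 (15.2% and 15%) and Hey2 (15.2% and 15.4%) were nearly level. Unthinned, the Notch1 shares were 82.9% and 17.4% and the Dll4 shares 65.9% and 5.4%. Intervals cover counting error only, since cells of a library share its embryo and preparation.

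**Figure D2:**
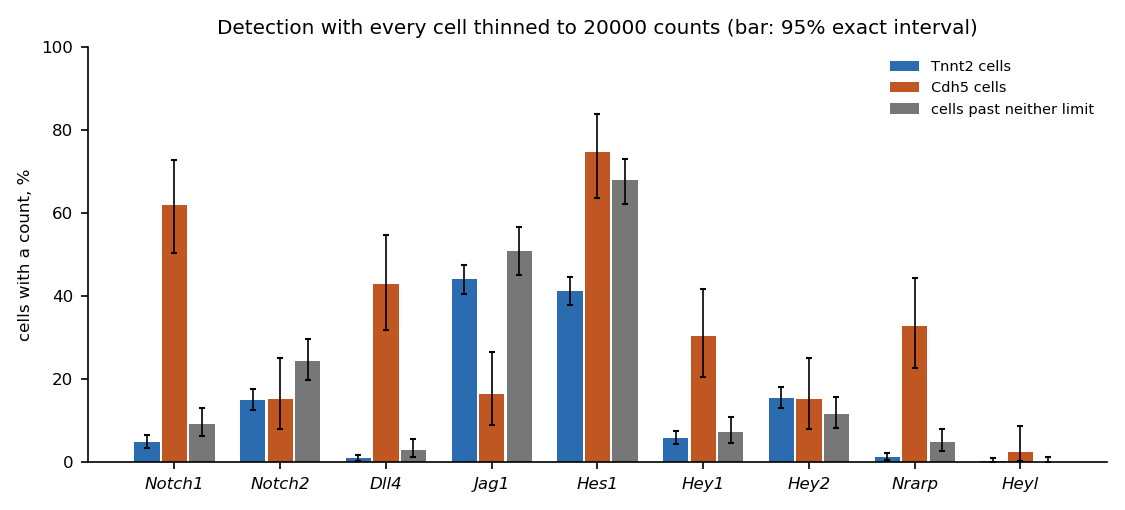
Percent of cells with at least 1 count of each gene, after every cell was thinned to 20000 counts, in Tnnt2 cells, Cdh5 cells and cells past neither limit, with 95% exact binomial intervals. Notch1, Dll4, Hey1 and Nrarp bars are tallest in Cdh5 cells, and the Jag1 bar is shortest there.

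Because Cdh5 cells were 6.2% of the kept cells, their part in the total of a gene shows how concentrated it was. Cdh5 cells held 70.7% of the summed CPM of Dll4, 51.4% of Nrarp, 48.1% of Notch1, 27.1% of Hey1 and 12.4% of Hes1. They held 7.0% of Hey2, 4.9% of Notch2 and 1.7% of Jag1. Cells past neither limit, 24.3% of the kept cells, held 29.8% of Notch1, 25.9% of Nrarp, 24.9% of Hey1 and 18.6% of Dll4. The Tnnt2 cells, 67.7% of the kept cells, held 75.9% of the total of Hey2, 68.9% of that of Jag1 and 54.0% of that of Notch2, so the Jag1 share was about their share of cells.

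Some Cdh5 cells had counts of both receptor and ligand. After thinning, 24 of 79 Cdh5 cells (30.4%) had counts of both Notch1 and Dll4, 25 had Notch1 alone, 10 had Dll4 alone and 20 had neither. Of the thinned Tnnt2 cells, 0 of 824 had counts of both. This allows up to 0.364% of cells with both counts at that depth and says nothing of cells below detection. Among them 40 had Notch1 alone and 8 had Dll4 alone, so hardly any with both would be found if the 2 were detected separately. At their own depth 13 of 902 Tnnt2 cells (1.4%) and 46 of 82 Cdh5 cells (56.1%) had both. Of the thinned Cdh5 cells, 41 (51.9%) had Notch1 together with at least 1 of Hes1, Hey1, Hey2 and Nrarp. In Tnnt2 cells, Jag1 and Notch2 were found together in 57 of 824 (6.9%). Shares with both genes rise with the share of each gene. Whether any pair was found together more often than separate detection would give was not tested.

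Few of the other pathway genes passed. A list of 48 pathway genes held 39 others, of which 32 were tested, and 4 (12.5%) were higher and 3 (9.4%) lower in Cdh5 cells. Beside the 11.3% and 18.9% of all genes, the first share is near the background and the second below it. Their median log2 difference was 0.14, against -0.21 over all genes. The largest 6 differences of the 7 called were as follows. Mfng, a glycosyltransferase that modifies Notch receptors, had a mean of 0.32 CPM in Tnnt2 cells and 33.17 CPM in Cdh5 cells (log2 difference 4.20 ± 0.50, adjusted p = 6.67e-07, limma). Notch4, the endothelial receptor, rose by 2.73 ± 0.55 and Fbxw7, a ubiquitin ligase subunit that directs Notch turnover, by 1.803 ± 0.424 (adjusted p = 0.000537 and 0.00225, limma). Mfng and Notch4 (at most 1.18 and 1.89 CPM in Tnnt2 cells) passed the filter on low values only through the Cdh5 cells. For them the filter favoured the direction, so their part in the count is a description. Dlk1, a non-canonical ligand, had a log2 difference of -2.42 ± 0.58, Hes6 of -1.38 ± 0.27 and the ligand Jag2 of -1.29 ± 0.48 (adjusted p = 0.00276, 0.000385 and 0.0454, limma). Rbpj itself had 36.53 CPM in Tnnt2 cells and 41.23 CPM in Cdh5 cells, a log2 difference of 0.05 ± 0.26 (adjusted p = 0.9, limma).

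Of 12 signals listed as lying downstream of or beside Notch in the endocardium, 10 were tested, 4 were higher and 5 lower in Cdh5 cells. Among all genes tested, 11.3% were called higher and 18.9% lower. The median log2 difference of the 10 was -0.38, against -0.21 over all genes. The endothelial genes Egfl7 (2.50 ± 0.17), Nrg1 (2.59 ± 0.60), Efnb2 (1.95 ± 0.24) and Ephb4 (1.54 ± 0.40) were the 4 that rose. Nrg1 encodes a ligand and Erbb2 and Erbb4 its receptors, and the receptors were lower in Cdh5 cells, at -2.14 ± 0.50 for Erbb2 and -2.40 ± 0.47 for Erbb4 (adjusted p = 0.00225 and 0.000416, limma). Erbb4 (at most 2.75 CPM in Cdh5 cells) passed the filter only through the Tnnt2 cells, so its part in the count is a description. Bmp2, Tbx2 and Tbx20 were the other genes that fell.

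**Figure D3:**
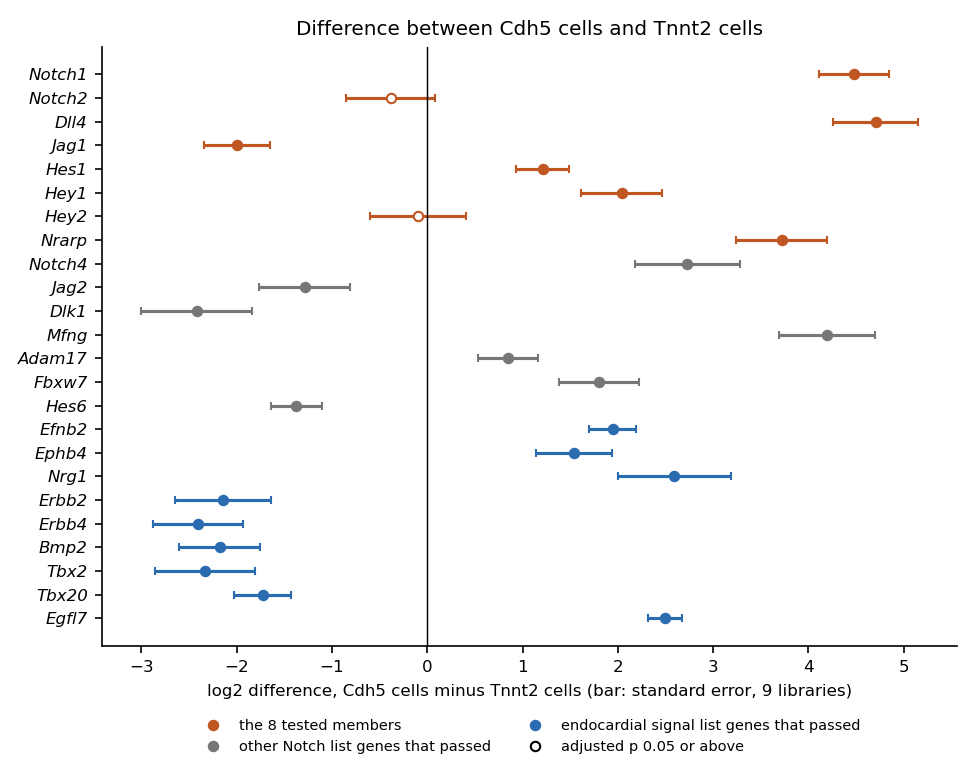
Log2 difference of Cdh5 cells minus Tnnt2 cells with its standard error, from 9 libraries, for the 8 tested members, the 7 other pathway genes and the 9 signal genes that passed. Notch1 and Dll4 lie furthest to the right, and Jag1 and Dlk1 lie left of 0 beside Erbb2 and Erbb4.

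Genes with the most similar pattern were sought for 4 members over 24 library-by-class means and 11530 genes, leaving out the members. For Dll4 they were Cdh5 (Pearson r = 0.974), Smagp (0.971) and Limch1 (0.959). For Notch1 they were Plvap (0.952), Fn1 (0.951) and Grap (0.947). Hey1 was nearest to Litaf (0.892), Ppp1r13b (0.888) and Hyal2 (0.867), and Hey2 to Tigd2 (0.862), Rab4a (0.845) and Tcn2 (0.844). The means share libraries and classes, and Cdh5 chose 1 of the classes, so these values describe likeness only.

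Between the Cre lines, no member was called over all kept cells averaged over the 4 stages. None of the 8 tested passed by limma (3 had an unadjusted p below 0.05, and 0 passed by edgeR and 1 by DESeq2), beside 7.35% of 10665 genes. The differences, Isl1Cre minus Nkx2-5Cre, ran from -0.61 ± 0.29 for Hey1 to 0.55 ± 0.26 for Notch2 on the log2 scale. By single stage, Hey2 was lower in Isl1Cre at E7.75 (-1.54 ± 0.41, adjusted p = 0.0257, limma), 1 of 8 members beside 7.13% of genes. That call was lost without replicate 1 of either line at E7.75. No member passed at E8.25 (5.11% of genes), E8.75 (0.319%) or E9.25 (0.975%), where 3, 2 and 1 members had an unadjusted p below 0.05. The log2 differences ran from -1.36 (Notch1) to 1.34 (Notch2) at E8.25, from -0.37 (Hey1) to 1.39 (Nrarp) at E8.75, and from -1.98 (Notch1) to 0.71 (Hey2) at E9.25.

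Over time, Jag1 fell per day in Nkx2-5Cre hearts (-0.77 ± 0.21 on the log2 scale, adjusted p = 0.0118, limma), 1 of 8 members beside 24.7% of genes, and in Isl1Cre hearts it had -0.66 ± 0.25 (adjusted p = 0.0664). The Nkx2-5Cre call was lost without replicate 2 of E7.75 (-0.74, adjusted p = 0.0629) or replicate 1 of E9.25 (-0.51, adjusted p = 0.138). Hey2 rose per day in Isl1Cre hearts (1.78 ± 0.31, adjusted p = 0.000317, limma), 1 of 8 beside 23.2% of genes, and in Nkx2-5Cre hearts it had 0.44 ± 0.26 (adjusted p = 0.223). The slopes of the other 6 members ran from -0.47 (Hey1) to 0.87 (Notch1, adjusted p = 0.068) in Nkx2-5Cre and from -0.82 (Notch2) to 0.39 (Dll4) in Isl1Cre. No member passed the test of the difference between these slopes (2.58% of genes, 1 member with an unadjusted p below 0.05, and 0 by edgeR and DESeq2), and for Hey2 it was 1.34 ± 0.40 (adjusted p = 0.0861), with the other 7 from -1.07 (Notch1) to 0.34 (Hey1). The share of Tnnt2 cells changed with stage and line, from 16 of 90 and 23 of 85 kept cells in the Isl1Cre libraries of E7.75 to 88 of 91 in that of E9.25, so the same tests were made within Tnnt2 cells.

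In Tnnt2 cells Jag1 stood highest at E7.75 in both lines. Its level in Nkx2-5Cre was 94.98 and 91.8 CPM (replicates 1 and 2) at E7.75, 26.03 and 35.4 CPM at E8.25, 35.3 and 46.67 CPM at E8.75, and 23.57 and 41.8 CPM at E9.25. In Isl1Cre it was 125.82 and 175.61 CPM at E7.75, 51.31 and 66.83 CPM at E8.25, 40.44 and 68.96 CPM at E8.75, and 39.96 CPM at E9.25. All 4 libraries of E7.75 lay above all 11 later libraries, and the 3 later stages of Nkx2-5Cre overlapped one another. In Isl1Cre E8.25 and E8.75 overlapped, and the single E9.25 library lay just below both. The change per day was -0.84 ± 0.21 in Nkx2-5Cre (adjusted p = 0.0115, limma) and -1.18 ± 0.25 in Isl1Cre (adjusted p = 0.00395), from 15 libraries and 10524 genes.

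Both Jag1 slopes rested on the earliest stage, and both calls were lost with cells thinned to 5000 counts (adjusted p = 0.0853 and 0.0996). Without the E7.75 libraries they were 0.07 (adjusted p = 0.973) and -0.48 (adjusted p = 0.591). The Nkx2-5Cre call was also lost without replicate 2 of E7.75 (-0.82, adjusted p = 0.0664) or replicate 1 of E9.25 (-0.60, adjusted p = 0.148). Tnnt2 itself moved with stage inside the class, at a mean of 2765 to 3378 CPM in the 4 libraries of E7.75 and 4773 to 7135 CPM in the later ones, and its part in the Jag1 result was not tested. Cells just above the Tnnt2 limit (2000 to 2500 CPM, 42 cells) had 99.1 CPM of Jag1, and those just below it (1500 to 2000 CPM, 46 cells) had 86.7 CPM.

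Hey2 in Tnnt2 cells was listed at 0 in both Isl1Cre libraries of E7.75. In the later Isl1Cre libraries it was 14.23 and 14.12 CPM at E8.25, 12.01 and 12.88 CPM at E8.75, and 24.73 CPM at E9.25. In Nkx2-5Cre it was 13.09 and 4.88 CPM at E7.75, 16.36 and 8.47 CPM at E8.25, 16.64 and 12.17 CPM at E8.75, and 14.3 and 13.22 CPM at E9.25. The 2 earliest Isl1Cre libraries were thus below all others, and the single E9.25 library of that line was the highest.

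The change per day of Hey2 was 2.80 ± 0.40 in Isl1Cre (adjusted p = 0.000132, limma) and 0.47 ± 0.33 in Nkx2-5Cre (adjusted p = 0.382). Of the 6 members tested in Tnnt2 cells, 1 (Jag1) passed for change per day in Nkx2-5Cre, beside 13.8% of genes, and 2 (Jag1 and Hey2) in Isl1Cre, beside 13.6%. The size of the Hey2 slope depends on how values of 0 enter: it was 1.07 with a pseudocount of 10 and 6.53 by edgeR, and 0.82 (adjusted p = 0.395) without the E7.75 libraries. The slopes differed between the lines by 2.33 ± 0.52 (adjusted p = 0.0473, limma), 1 of 6 members beside 0.656% of genes. That difference was lost when any 1 of 10 libraries was left out (adjusted p from 0.0706 to 0.166): Nkx2-5Cre replicate 1 of E7.75 or E8.25, either replicate of Nkx2-5Cre at E8.75 or E9.25, or either replicate of Isl1Cre at E8.25 or E8.75.

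At E7.75 alone the Hey2 level of Tnnt2 cells was lower in the Isl1Cre line (-3.18 ± 0.52, adjusted p = 0.00149, limma), 1 of 6 members beside 7.86% of genes. Hey2 had a count in 0 of 39 Isl1Cre cells and in 35 of 72 Nkx2-5Cre cells (48.6%). The 0 allows a share of up to 7.69% of cells with a count, and a cell with Hey2 at a few CPM can give none. Depth differed: the median cell held 99814 counts in Isl1Cre and 240956 in Nkx2-5Cre. Thinned to 20000 counts, the shares were 0 of 36 (up to 8.33%) and 10 of 66 (15.2%, exact interval 7.51 to 26.1). In summed counts, Nkx2-5Cre had 289 of 20957203 and Isl1Cre 0 of 5649107. Against a floor of 3 counts over the group, the summed level in Isl1Cre was at least 26-fold lower. That bound treats counts as independent and leaves out the spread between cells and between libraries. The limits of the 2 thinned shares overlap, so at equal depth the size of the difference is not settled. The 2 Nkx2-5Cre libraries were unlike: replicate 1 gave 260 of the 289 counts, and without it the bound was 8.7-fold. The call was lost with cells thinned to 5000 counts (adjusted p = 0.118) and with a pseudocount of 10 (-0.88, adjusted p = 0.0553). Among cells past neither limit at E7.75, Hey2 was found in 12 of 129 Isl1Cre cells (9.3%) and 54.5% of Nkx2-5Cre cells (55 cells) at their own depth.

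**Figure D4:**
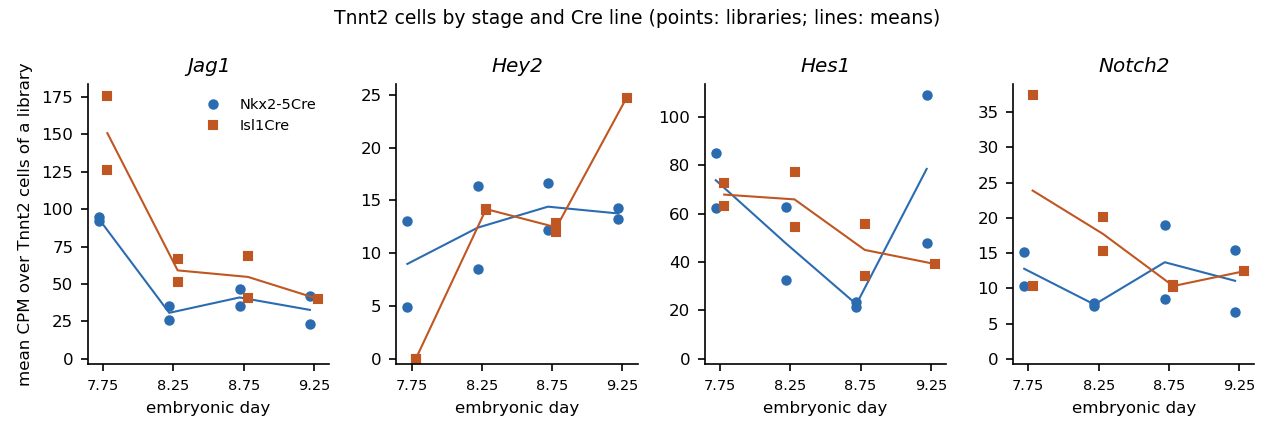
Mean CPM of Jag1, Hey2, Hes1 and Notch2 over the Tnnt2 cells of each library against embryonic day, for Nkx2-5Cre and Isl1Cre, with points for libraries and lines through stage means. Jag1 is highest at E7.75 in both lines, Hey2 is at 0 in the 2 Isl1Cre libraries of E7.75, and the Hes1 and Notch2 points of the lines overlap.

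Notch1, Notch2, Hes1 and Hey1 showed no called change in Tnnt2 cells by limma. Dll4, Nrarp and Heyl did not pass the filter on low values there and were not tested. Averaged over stages, none of the 6 tested differed between the lines by limma (1 had an unadjusted p below 0.05, and 1 passed by edgeR and 2 by DESeq2), beside 2.91% of genes. Jag1 came nearest, at 0.60 ± 0.17 (Isl1Cre minus Nkx2-5Cre, adjusted p = 0.0724), and the other 5 ran from -0.57 (Hey2) to 0.45 (Notch2). Per day, Notch1, Notch2, Hes1 and Hey1 ran from -0.20 (Hes1) to 0.10 (Hey1) in Nkx2-5Cre and from -0.60 (Hes1) to 0.01 (Notch1) in Isl1Cre. Hes1 ran from 21.6 to 108.95 CPM and Notch2 from 6.67 to 37.38 CPM over the 15 libraries. Hey1 ran from 0.25 to 12.66 CPM, both values in Isl1Cre at E7.75, where the replicates differed most. Notch1, Dll4 and Nrarp stayed at or below 10.32, 1.07 and 8.4 CPM in all 15 libraries. Among the other listed pathway genes, 27 were tested, and 2 (7.4%) rose per day in Nkx2-5Cre and 4 (14.8%) in Isl1Cre, with none falling. The first share is below and the second near the background, at 13.8% and 13.6% of all genes called in either direction.

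Within Cdh5 cells, stage and line were fitted together over the same 9 libraries, and no member passed for either. For change per day, 0 of 8 members passed by limma, edgeR and DESeq2 (2 with an unadjusted p below 0.05 by limma), beside 0.949% of 10324 genes. For the line, 0 of 8 passed by limma, edgeR and DESeq2 (2 with an unadjusted p below 0.05), beside 0.0291% of genes. Notch1 in Cdh5 cells was 90.15 CPM in Nkx2-5Cre at E7.75 and 74.03 CPM in Isl1Cre at E7.75, and 86.36 and 188.5 CPM in Nkx2-5Cre at E9.25. Its change per day was 0.07 ± 0.33 on the log2 scale and that of Dll4 was -0.18 ± 0.51. Jag1 (-1.95 ± 0.74, adjusted p = 0.284) and Hey1 (-1.30 ± 0.55, adjusted p = 0.351) had the most negative slopes, and those of Notch2, Hes1, Hey2 and Nrarp ran from -0.13 (Nrarp) to 0.60 (Hes1). Between the lines, Isl1Cre minus Nkx2-5Cre, Hey2 had -2.76 ± 0.98 (adjusted p = 0.337) and Notch2 1.96 ± 0.93 (adjusted p = 0.51), and the other 6 members ran from -1.26 (Hey1) to 0.59 (Nrarp). With 5 to 12 Cdh5 cells in a library, moderate changes were not detectable.

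In Tnnt2 cells Hey2 was the more widely detected of the pair. At their own depth, 277 of 902 Tnnt2 cells had Hey2 without Hey1, 94 had Hey1 without Hey2, 59 had both and 472 had neither. Of the Tnnt2 cells with Hey1, 38.6% also had Hey2, close to the 37.3% of all Tnnt2 cells with a Hey2 count. In 9 libraries with at least 5 cells of each kind, 197 Hey2-only and 74 Hey1-only cells were compared within libraries. Hey1 and Hey2 chose the cells, so their own calls are no finding, although both are among the 11 genes called. The median cell held 163184 counts among all Hey2-only and 129410 among all Hey1-only cells. None of the 4 other members tested (Notch1, Notch2, Jag1, Hes1) passed by limma, edgeR or DESeq2, and none had an unadjusted p below 0.05 by limma, beside 0.0977% of 11255 genes called (Hey1 and Hey2 included). Their log2 differences ran from -0.37 (Hes1) to 0.33 (Notch2). Hes1 had 46.91 CPM in Hey2-only and 70.72 CPM in Hey1-only cells (log2 difference -0.37 ± 0.28, adjusted p = 0.75, limma).

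Chamber genes did not pass either in that comparison. Of 10 ventricular, 10 atrial or inflow and 8 outflow genes tested, none was called, with 3, 1 and 3 at an unadjusted p below 0.05. The ventricular transcription factor Irx4 had 118.4 CPM in Hey2-only and 56.6 CPM in Hey1-only cells (1.37 ± 0.32, adjusted p = 0.108, limma), higher in 8 of 9 libraries. Isl1, a marker of second heart field progenitors, had 5.45 and 27.86 CPM (-1.76 ± 0.50, adjusted p = 0.254). The atrial regulator Nr2f2 had 2.22 and 12.51 CPM (-1.32 ± 0.58, adjusted p = 0.516). Tdgf1 of the outflow list had 247.1 and 610.52 CPM (-1.14 ± 0.28, adjusted p = 0.154, limma). Each list held genes of both signs, such as Cck (-0.15), Tbx5 (0.08) and Fgf10 (0.75), which went against the genes named above. The list medians were 0.30 (ventricular), -0.19 (atrial or inflow) and -0.52 (outflow), against 0.09 over all genes. Of the 9 genes called beside Hey1 and Hey2, 4 were higher in Hey2-only cells, among them the myosin Myh6 (0.46 ± 0.09, adjusted p = 0.0361), and 5 lower, among them the semaphorin receptor Nrp2 (-1.42 ± 0.28, adjusted p = 0.0384, limma). Both were named after their values were seen.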

How the data were processed

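The authors deposited CPM per gene and cell for 15 libraries, made from 3' ends by a modified Smart-seq2 protocol with cell barcodes and molecular identifiers, per the labels' protocols. CASAVA 1.8, TopHat2 2.0.12, HTSeq and mm10 are named in the submitters' processing notes. The sources used here do not state whether reads or molecular identifiers were counted. Low CPM values were whole multiples of 1 count in 100.0% of cases in every library, so whole counts were recovered from the deposited CPM (tolerance 0.1 of a step). Class means per library were scaled by TMM. Genes with at least 5 CPM in at least 2 means were tested with limma 3.58.1 (R 4.3.3, trended) at a pseudocount of 1. Tests on Tnnt2 cells used libraries with at least 10 of them. edgeR 4.0.16 and DESeq2 1.42.0 on summed recovered counts were alternatives. Fits were tested on simulated data. The 9 members and all gene lists were chosen with earlier results of these data known. Every member past the filter was tested in each comparison, and those not called are mostly given by their range. Other pathway genes are named where they passed between the classes, at most 6 by size, and likeness names the 3 highest correlations. The slope difference and the E7.75 contrast within Tnnt2 cells, and all fits without E7.75, were added after seeing the data.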

Additional observations from a re-analysis of the deposited data

Results flagged for a closer look

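The change of Hey2 per day in Tnnt2 cells was called different between the Cre lines in a test of the difference itself. That test was added after seeing the data, and the call held in 3 of 11 alternative settings. The difference, Isl1Cre minus Nkx2-5Cre, was 2.328 on the log2(CPM + 1) scale (SE 0.52, adjusted p = 0.0473, limma). The 2 Isl1Cre libraries of E7.75 held 39 Tnnt2 cells, none with a Hey2 count. Without the E7.75 libraries of both lines the difference was 0.61 (adjusted p = 0.786).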

How the results depend on the processing

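Counts here are of members called. Between the classes, 6 were called under every alternative and left-out library, except 3 with cells thinned to 5000 counts (the median of all genes then moved from -0.21 to -1.22) and 4 with a Cdh5 limit of 100 CPM. The Cdh5 cell fit could not be made at that limit. Between the lines over all kept cells, 0 became 1 by DESeq2; in Tnnt2 cells, 0 became 1 by edgeR and 2 by DESeq2, and 0 to 1 with a library left out (1 without Isl1Cre E7.75 replicate 1). By single stage, 1 became 0 with a pseudocount of 10, without a filter on low genes, thinned or without E7.75, and 2 by DESeq2 or without a filter on cells (0 to 1 with a library left out). For change per day in Nkx2-5Cre over all kept cells, 1 became 2 with a pseudocount of 10 or DESeq2, and 0 without a filter on low genes, without a filter on cells or without E7.75 (0 to 1 with a library left out). In Isl1Cre, 1 became 2 without a filter on low genes, by edgeR or by DESeq2, and 0 without E7.75 (1 to 2 with a library left out; 2 without either Nkx2-5Cre replicate of E9.25, Isl1Cre E7.75 replicate 1, E8.75 replicate 2 or E9.25).

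In Tnnt2 cells, change per day in Nkx2-5Cre went from 1 to 0 thinned or without E7.75, where Jag1 turned to 0.065 (0 to 1 with a library left out), and in Isl1Cre from 2 to 1 thinned and 0 without E7.75. The slope difference went from 1 to 0 with a pseudocount of 10, without a filter on low genes, thinned, with a Cdh5 limit of 100 CPM, with a Tnnt2 limit of 1000 CPM, with cells past both limits in both classes, or without E7.75 (0 to 1 with a library left out). The E7.75 contrast went from 1 to 0 with a pseudocount of 10 or thinned, and to 2 by DESeq2. Causes were not tested.

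Replicate numbers do not pair the libraries. The difference of replicate 1 minus replicate 2 over the genes was correlated between groups. Of 21 pairs of the 7 groups, 1 had a correlation above 0.1 (r from -0.03 to 0.17). With the replicate number as a block, 1 member was called between the lines over all kept cells and 1 in Tnnt2 cells (0 without it), 0 for the slope difference (1 without it), and the other counts did not move.

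Over all genes, calls between the classes went from 3412 to 1285 with a Cdh5 limit of 100 CPM. Thinning took change per day in Tnnt2 cells from 1449 to 371 (Nkx2-5Cre) and from 1435 to 548 (Isl1Cre), and leaving out E7.75 took them to 70 and 418. Between Hey2-only and Hey1-only cells, calls ran from 1 to 26 around 11. Within Cdh5 cells they ran from 9 to 133 around 98 per day and from 0 to 18 around 3 for the line.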

Other observations

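The 324 cells past neither limit, mostly of E7.75 (129 from Isl1Cre, 51 and 50 from the 2 Nkx2-5Cre libraries), often had Hes1, Jag1 and Notch2. Thinned to 20000 counts, 67.9% of them had Hes1, 51.0% had Jag1 and 24.5% had Notch2, against 41.3%, 44.1% and 15% of Tnnt2 cells. They held 39.8% of the summed CPM of Notch2 and 38.8% of that of Hes1, at 24.3% of the kept cells. They were mixed: 10 endothelial and endocardial markers summed to a median of 235.8 CPM over libraries. The median sum of 5 endoderm markers was 35.2 CPM (highest library 481.3), against 2.7 CPM in Tnnt2 cells and 60.5 CPM in Cdh5 cells. Blood markers, 4 in number, summed to 0.0 CPM in the median library. Their highest library value, 55920.7 CPM, was that of 1 cell, the only such cell in replicate 1 of Nkx2-5Cre at E8.75. No test was made on them.

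The 24 cells past both limits had endothelial and endocardial marker sums with a median of 127.7 CPM over libraries, against 1635.2 CPM in Cdh5 cells. Of them, 20.8% had a Notch1 count at their own depth and 12.5% had a Dll4 count, against 82.9% and 65.9% of Cdh5 cells. Just inside the Cdh5 limit (20 to 40 CPM, 11 cells), Notch1 was 60.1 CPM and Dll4 41.5 CPM. Just outside it (Cdh5 found but under 20 CPM, 75 cells), they were 17.8 and 4.7 CPM.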
